A study of Homo sapiens with 15 samples.

Results

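Tubulins are the proteins that microtubules are built from. An alpha-tubulin and a beta-tubulin fold with the help of the chaperonin CCT and of tubulin cofactors, pair as a dimer, and add as dimers to the end of a growing microtubule, while several genes encode near-identical versions (isotypes) of each. Isotypes differ mainly at the carboxy terminus, where enzymes remove or restore a final tyrosine and add glutamate or glycine chains. Cells also read the amount of unpolymerised tubulin: the factor TTC5 binds the first residues of a tubulin as it leaves the ribosome and directs the decay of its mRNA. This report gives the RNA of 10 tubulin genes, 4 for alpha-tubulin (TUBA1A, TUBA1B, TUBA1C and TUBA4A) and 6 for beta-tubulin (TUBB, TUBB2A, TUBB2B, TUBB3, TUBB4B and TUBB6), of 18858 genes in the deposited count table. They were chosen by symbol, and all 10 were found.

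RNA was measured in MDA-MB-231, an established human cell line from a breast adenocarcinoma that the labels call wild type. The 5 groups were cells left untransfected (Control, libraries 16, 21 and 26), cells given a non-targeting siRNA pool (siControl, libraries 17, 22 and 27), a pool against YAP1 (siYAP, libraries 18, 23 and 28), a pool against WWTR1, the gene of TAZ (siTAZ, libraries 19, 24 and 29), or both pools (siYAP+TAZ, libraries 20, 25 and 30). YAP and TAZ are transcriptional co-activators that the Hippo kinase cascade holds back, and the study asked what their loss does to cells that degrade matrix. Knockdown lasted 48 h in the groups that were transfected. Cells of all 5 groups, Control included, spent 5 to 6 h on gelatin before RNA was taken. The siYAP+TAZ cells received both pools, so a larger total amount of siRNA and the loss of both proteins cannot be told apart. The study describes its RNA sequencing as independent sets of experiments, and each group has 3 libraries, but the labels do not say which libraries belong to 1 set.

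Total counts per library lay between 18696737 and 30107312. Counts are given below as normalized counts, which are read counts scaled by the TMM method to the average library. The target of siYAP, YAP1, read 4431, 4333 and 4202 in siControl and 1013, 2764 and 761 in siYAP, while siYAP+TAZ read 2240, 2202 and 1796. All 6 libraries with the YAP1 pool were thus below siControl, but library 23 kept more YAP1 than the others, and the difference did not pass the test in siYAP (edgeR adjusted p = 0.099) or siYAP+TAZ (adjusted p = 0.072). Without library 23 the siYAP difference was -2.27 (log2, adjusted p = 3.4e-08), and with DESeq2 YAP1 passed in both (adjusted p = 0.0094 and 0.038). It also passed in siYAP with limma-voom (0.046). WWTR1 read 1995, 1850 and 1579 in siControl, 828, 254 and 521 in siTAZ and 1133, 1123 and 1284 in siYAP+TAZ. It fell in siTAZ (adjusted p = 0.019, but 0.067 to 0.073 without siControl 17, siControl 22 or siTAZ 29, and 0.16 with only these groups fitted), and in siYAP+TAZ its level was lower without passing the test (adjusted p = 0.20). With only siYAP+TAZ and siControl fitted, both targets passed there, WWTR1 at an adjusted p of 0.0011 and YAP1 at 2.8e-05. WWTR1 was higher in every siYAP+TAZ library than in every siTAZ library, by 1.13 (log2), a difference that missed the threshold with edgeR (adjusted p = 0.065) and passed it with DESeq2 (0.0069), limma-voom (0.043), either filter on low counts (0.043 and 0.044), and without siTAZ 19 (0.0058) or siTAZ 24 (0.042). VIM, CD44, KRT18 and CAV1, which MDA-MB-231 is known to express, each read at least 4893 normalized counts in every library. CAV1 fell in siYAP+TAZ by 0.35 (log2, adjusted p = 0.0065). Of 6 markers of other cell types 3 were in the table. PTPRC of leukocytes stayed at or below 5.10 in every library, SYP of neurons read 23.6 to 33.2 in siControl and differed by 0.09 (log2) in siYAP+TAZ, and CD14 of monocytes rose from a range of 13.6 to 20.3 in siControl to 34.4 to 45.2 in siYAP+TAZ (adjusted p = 0.002). Of 4 markers listed beforehand as low in MDA-MB-231, 2 were in the table. PGR stayed at or below 8.32 in every library, while EPCAM of epithelial cells read 244 to 407 over all libraries. CD14 also lay above siControl in siYAP and siTAZ without passing the test (adjusted p = 0.057 and 0.20), although siYAP passed with library size alone (0.045) and with either filter (0.043 and 0.044), and its part in the results was not tested.

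The 10 genes share much of their sequence, which sets how well their reads can be told apart. The starts of their coding sequences are shown for 4 of them because TTC5 reads the first residues. Capitals mark the codons after the start codon, and the sequences are read 5′ to 3′ along the gene from GRCh38.
TUBA1A: atgCGTGAGTGC
TUBA4A: atgCGTGAATGC
TUBB: atgAGGGAAATC
TUBB2B: atgCGTGAGATC
All 10 genes begin with codons for methionine, arginine and glutamate. The fourth codon is for cysteine in the alpha genes and for isoleucine in the beta genes, so the stretch that TTC5 is known to bind is present in every member, whichever way its RNA moved.

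In GENCODE release 44, TUBA1A lies at chr12:49184686-49189080 on the minus strand of GRCh38 near TUBA1B (chr12:49127782-49131397, minus), and its span meets that of TUBA1C (chr12:49188736-49274600) on the plus strand. Its coding sequence is 97.2% identical to that of TUBA1B, 95.9% to that of TUBA1C and 84.4% to that of TUBA4A. TUBB2A (chr6:3153497-3157544) and TUBB2B (chr6:3223324-3231730) are neighbours on the minus strand with coding sequences that are 98.1% identical. Every stretch of 50 bases of each gene's main transcript was searched for in all other transcripts and in the rest of the genome. TUBA1A shared 49.3% of these windows with another place, TUBA1B 62.7%, TUBA1C 27.4%, TUBB2A 64.6% and TUBB2B 54.9%. TUBA4A shared none, TUBB6 1.09%, TUBB3 9.23% and TUBB4B 11.2%, and the 23.4% of TUBB lay in pseudogenes and other places outside the 10 genes. A read that lies wholly within a shared stretch cannot be assigned by sequence. Counts of TUBA1A to TUBA1C and of TUBB2A and TUBB2B thus rest on reads that reach outside such stretches. At 50 bases, 823 windows of TUBA1A and 588 of TUBA1B occur nowhere else. The window was not matched to the read length, and the study names a sequencing kit that allows longer reads. For longer reads the shares given here are upper bounds. The methods do not state whether counting used the strand. Genes on the opposite strand overlap 72.6% of the main transcript of TUBA1B (TUBA1B-AS1) and 6.22% of that of TUBA1A. The overlap was 30.6% for TUBA4A, 23.6% for TUBA1C, 21.4% for TUBB and 7.93% for TUBB4B. TUBB2A, TUBB2B, TUBB3 and TUBB6 had none.

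**Figure D1:**
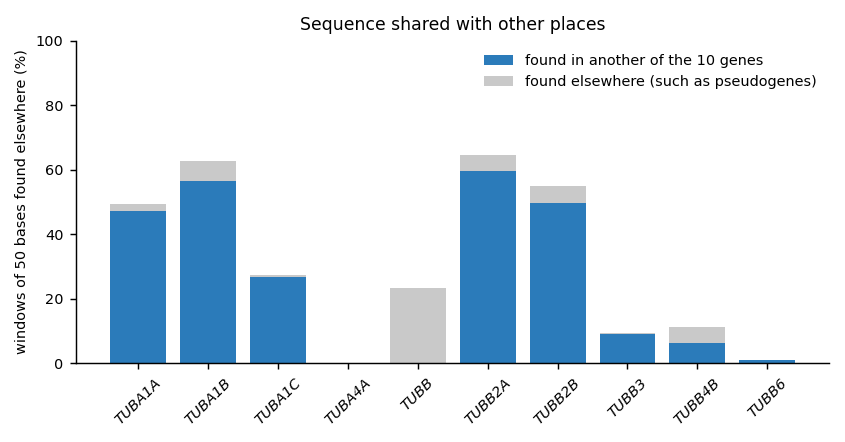
Percent of 50-base windows of each gene's main transcript (vertical axis) that occur elsewhere, with the part found in another of the 10 genes in blue and the part found in other places in grey. TUBB2A (64.6%), TUBB2B (54.9%) and the closely related TUBA1A (49.3%) and TUBA1B (62.7%) share the most, and TUBA4A shares none.

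TUBA1A was the sole member of the 10 tubulin genes that passed the test against siControl in the fit used here, which has no block for runs of library numbers. It encodes an alpha-tubulin best known from developing neurons, where mutations disturb cell migration. It read 1889, 1767 and 1590 normalized counts in siControl, close to the 1974, 1835 and 1483 of Control. It read 2181, 2360 and 2569 in siYAP, 2582, 3523 and 2828 in siTAZ, and 4302, 3675 and 4040 in siYAP+TAZ. Every library with a targeting pool lay above all 6 control libraries, and every siYAP+TAZ library lay above every other library of the series. The means were 1749 ± 150 (SD, n = 3) in siControl, 2370 ± 194 in siYAP, 2978 ± 488 in siTAZ and 4006 ± 315 in siYAP+TAZ, that is 136%, 170% and 229% of siControl.

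In siYAP+TAZ, TUBA1A rose 2.29-fold over siControl (log2 fold change 1.20, SE 0.12, edgeR quasi-likelihood test, adjusted p = 3.9e-06). It was the sole member of the 10 past the adjusted p of 0.05, and also past an absolute log2 fold change of 1. Of all 18858 genes, 18.4% passed the first threshold and 3.46% passed both, so that 1 of 10 is no larger a share than among all genes for the first. In siTAZ, TUBA1A rose 1.70-fold (log2 fold change 0.77, SE 0.12, adjusted p = 0.0041), again as the only called member of 10 where 2.03% of all genes were called. In siYAP the difference was 1.35-fold (log2 fold change 0.44, SE 0.12), with an unadjusted p = 0.0017 from edgeR and an adjusted p = 0.093, and no member was called where 0.933% of all genes were. With DESeq2 the siYAP value passed (adjusted p = 0.035), as it did when edgeR was fitted on the siYAP and siControl libraries alone (adjusted p = 0.043). Against Control in place of siControl, TUBA1A differed by 1.18, 0.42 and 0.75 (log2) in siYAP+TAZ, siYAP and siTAZ, with adjusted p = 3.8e-06, 0.090 and 0.0030 from edgeR, where 19.4%, 1.46% and 3.4% of all genes were called.

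Transfection with the non-targeting pool did not separate the groups: siControl and Control overlapped in TUBA1A, and their log2 difference was -0.01 with a 95% interval from -0.26 to 0.24. No gene of the 18858 passed the adjusted threshold in that comparison with edgeR, and 398 had an unadjusted p under 0.05, none of them a member. The groups that differ in which targeting pools they received were also compared directly. TUBA1A was higher in siYAP+TAZ than in siYAP by 0.76 (log2, SE 0.12, adjusted p = 0.0011), where 5.13% of all genes were called. It was higher in siYAP+TAZ than in siTAZ by 0.43 (SE 0.12, adjusted p = 0.041), where 5.44% were called. That last call was lost when any library of either group other than siTAZ 24 was left out, with adjusted p from 0.063 to 0.16. The siTAZ and siYAP libraries did not overlap in TUBA1A, but their difference of -0.33 (siYAP minus siTAZ, SE 0.12) had an adjusted p of 0.22, where 0.642% of all genes were called.

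The log2 changes of the single knockdowns, 0.44 and 0.77, sum to about the change of the double knockdown. The interaction, which is the double knockdown's change minus that sum, was -0.01 with a 95% interval from -0.36 to 0.34 (edgeR adjusted p = 1.0, rounded). The interval leaves room for departures of that size either way, and across all genes 0.0106% were called for an interaction. The targets were not shown to be equally depleted in the single and double knockdowns. Fitted WWTR1 was 0.65 of siControl in siYAP+TAZ and 0.30 in siTAZ, and fitted YAP1 was 0.48 in siYAP+TAZ and 0.35 in siYAP. The part of unequal depletion in the interaction was not tested.

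**Figure D2:**
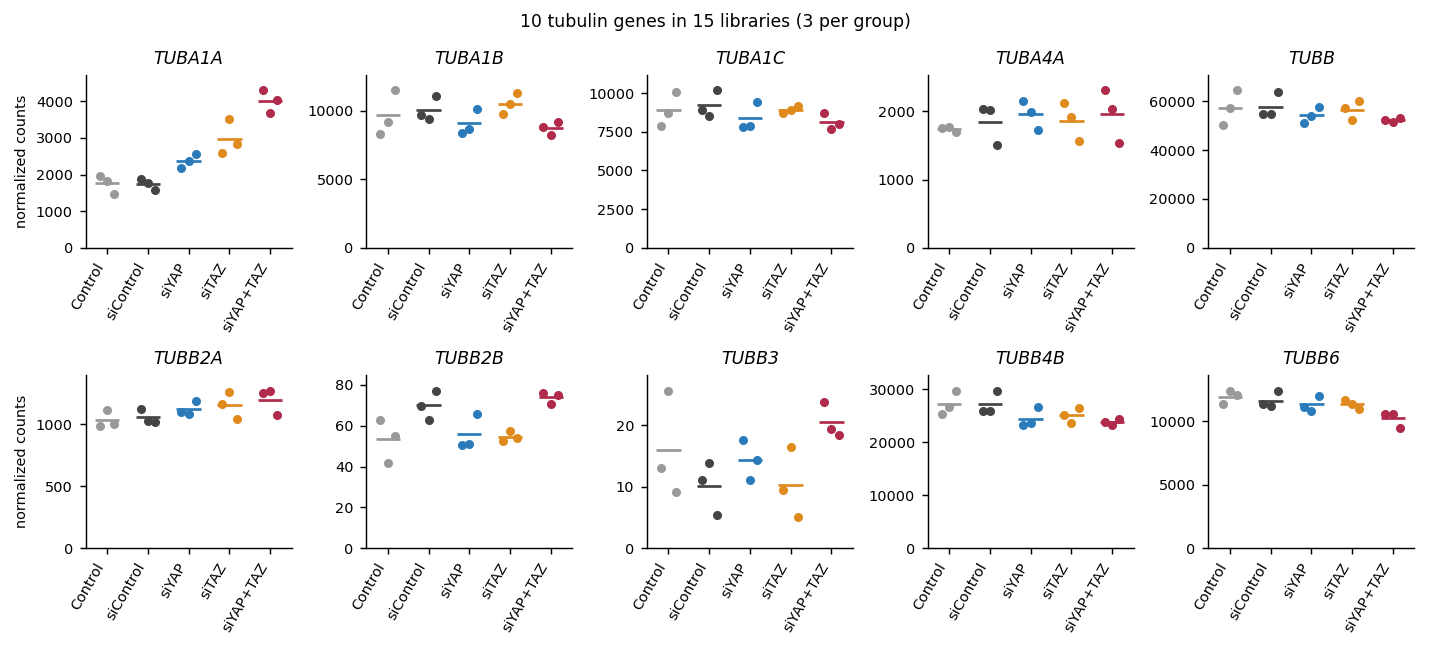
Normalized counts (vertical axes, each from 0) of the 10 tubulin genes in 15 libraries, by group; points are libraries and bars are means of 3. TUBA1A reads 1483 to 1974 in the 6 control libraries and 3675 to 4302 in the 3 siYAP+TAZ libraries, and the other 9 genes keep overlapping or nearly overlapping ranges.

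None of the other alpha genes was called against siControl in the fit without a block. TUBA1B, the alpha-tubulin of most dividing cells, read 9699, 9437 and 11114 in siControl and 8811, 8271 and 9214 in siYAP+TAZ. All siYAP+TAZ libraries lay just below siControl, at a log2 difference of -0.20 (95% interval from -0.43 to 0.02, adjusted p = 0.22). TUBA1C read 8875, 8548 and 10180 in siControl and 8714, 7671 and 7995 in siYAP+TAZ, which overlap, at -0.18 (adjusted p = 0.23). TUBA4A, the alpha-tubulin that is made without the final tyrosine, read 2029, 2022 and 1501 in siControl and 2310, 2043 and 1536 in siYAP+TAZ. Its ranges overlapped in every comparison with siControl, and its log2 difference of 0.08 had an interval from -0.24 to 0.40. In siYAP and siTAZ none of TUBA1B, TUBA1C and TUBA4A was called, with log2 differences from -0.15 to 0.08.

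In the same fit none of the beta genes was called against siControl in any knockdown. TUBB, the main beta-tubulin of most cells, read 54549, 54564 and 63578 in siControl and 52437, 51608 and 53241 in siYAP+TAZ. The siYAP+TAZ libraries were all lower, at -0.13 (95% interval from -0.33 to 0.06, adjusted p = 0.35). TUBB4B, a widely expressed isotype that is also found in cilia, read 25949, 25792 and 29645 in siControl and 23806, 23308 and 24286 in siYAP+TAZ. This put it at -0.19 (SE 0.08, unadjusted p = 0.033, adjusted p = 0.12).

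TUBB6, a divergent isotype whose rise is known to disturb microtubules in muscle, read 11316, 11168 and 12369 in siControl and 10582, 10575 and 9484 in siYAP+TAZ. Its log2 difference was -0.19 (SE 0.07, unadjusted p = 0.017, adjusted p = 0.078). Against Control (11333, 12404 and 12063) it was -0.22 and passed the test (adjusted p = 0.032). In siYAP and siTAZ, TUBB6 was within 0.04 (log2) of siControl. TUBA1B, TUBB, TUBB4B and TUBB6 thus did not overlap between siYAP+TAZ and siControl and were all lower, as were 18.2% of all genes.

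TUBB2A was the beta gene of middling level: 1125, 1026 and 1013 in siControl, and 1247, 1270 and 1075 in siYAP+TAZ. The groups overlapped and the difference of 0.18 had an interval from -0.00 to 0.37 (adjusted p = 0.17). TUBB2B, its near-identical neighbour, was far lower: 69.7, 62.9 and 77.2 in siControl, 50.6, 50.9 and 65.7 in siYAP, 52.5, 57.4 and 54.0 in siTAZ, and 76.1, 70.9 and 75.2 in siYAP+TAZ. Both single knockdowns were below the siControl mean and the double knockdown was not, and the interaction of 0.77 (log2, SE 0.26) had an unadjusted p = 0.0076 and an adjusted p = 0.65 from edgeR. Control, at 62.9, 42.0 and 55.2, also had a lower mean than siControl, by 0.38 (log2, unadjusted p = 0.054), so the single knockdowns differed from Control by only 0.05 and 0.03.

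TUBB3, the neuronal class III isotype that has been studied as a marker of taxane resistance, was near the limit of detection. It read 11.1, 13.9 and 5.36 in siControl, 13.0, 25.6 and 9.20 in Control, and 23.8, 19.3 and 18.4 in siYAP+TAZ. All siYAP+TAZ libraries were above siControl, with a log2 difference of 0.98 (95% interval from 0.10 to 1.86, unadjusted p = 0.031, adjusted p = 0.12). Against Control the groups overlapped and the difference was 0.35 (adjusted p = 0.61), so the size of this value depended on the reference group by more than 1.5 times.

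**Figure D3:**
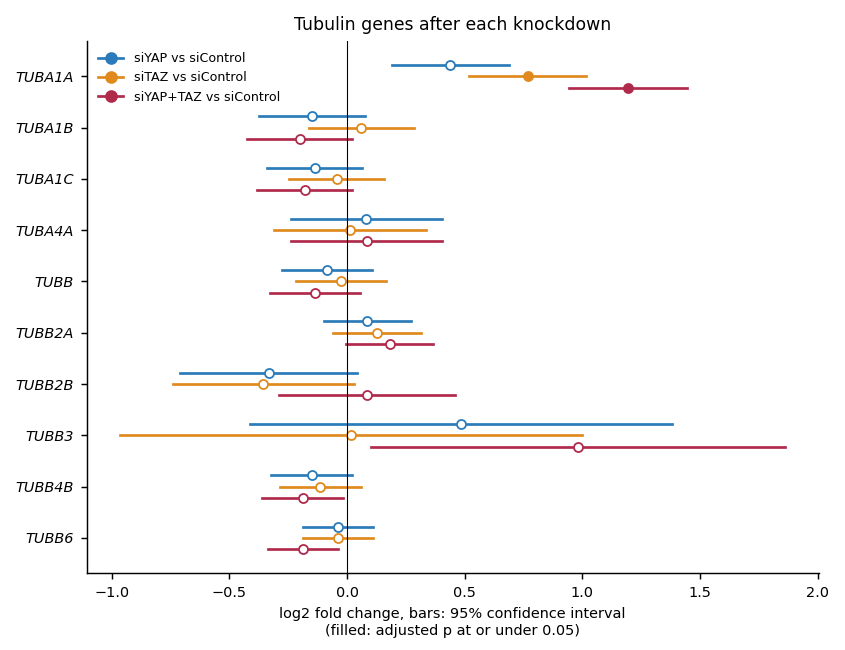
Log2 fold changes against siControl (horizontal axis) of the 10 tubulin genes (rows) in siYAP, siTAZ and siYAP+TAZ; bars are 95% confidence intervals and filled points passed an adjusted p of 0.05. TUBA1A has the only filled points (0.77 in siTAZ and 1.20 in siYAP+TAZ), and the interval of TUBB3 is the widest in siYAP+TAZ (0.10 to 1.86).

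To compare genes with each other, counts were divided by the length of the main transcript and by the library's size, which gives CPM (counts scaled to a fixed library total) per kilobase. On this scale the order of the alpha genes in siControl was TUBA1B (262 ± 23, SD, n = 3), TUBA1C (138 ± 13), TUBA1A (44.2 ± 3.8) and TUBA4A (38.2 ± 6.3). TUBA1A and TUBA4A, neighbours in that order, did not differ beyond their spread. In siYAP+TAZ, TUBA1A stood at 101 ± 8.0 and TUBA1C at 122 ± 8.0, while TUBA4A stayed at 40.5 ± 8.1. The beta genes in siControl ran from TUBB (968 ± 88) and TUBB4B (734 ± 59) to TUBB6 (261 ± 15), TUBB2A (27.6 ± 1.6), TUBB2B (1.54 ± 0.16) and TUBB3 (0.25 ± 0.11), an order in which no neighbouring ranges overlapped, and siYAP+TAZ kept the same order. These levels are not corrected for bases shared between genes or for overlap on the opposite strand, and the part of the latter was not tested.

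The sum over the 4 alpha genes hardly moved while its make-up did. It was 475, 460 and 513 CPM per kilobase in siControl and 516, 465 and 493 in siYAP+TAZ, a ratio of means of 1.02. TUBA1A supplied 10.1%, 9.72% and 7.85% of that sum in siControl, 12.7%, 13.4% and 12.8% in siYAP, 13.2%, 16.7% and 13.4% in siTAZ, and 21.1%, 20.0% and 20.7% in siYAP+TAZ. The share of TUBA1B was 54.3% ± 1.8 (SD, n = 3) in siControl and 46.4% ± 2.1 in siYAP+TAZ, and that of TUBA1C was 28.5% ± 1.1 and 24.8% ± 0.51. With only the windows that occur nowhere else as the length, the mean share of TUBA1A in siYAP+TAZ was 19.6%. Shares sum to the whole, so a higher share of 1 gene lowers the others.

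The sum over the 6 beta genes was 1905, 1895 and 2178 in siControl and 1799, 1772 and 1796 in siYAP+TAZ, a ratio of means of 0.898. The make-up of the beta sum stayed close, with TUBB at 48.5% ± 0.49 and 49.3% ± 0.49 in those groups, TUBB4B at 36.8% ± 0.02 and 36.0% ± 0.52, and TUBB6 at 13.1% ± 0.31 and 12.9% ± 0.84. The beta sum was 4.01, 4.12 and 4.25 times the alpha sum in siControl and 3.49, 3.81 and 3.64 times in siYAP+TAZ. The level of TUBA1B enters this ratio with the largest overlap on the opposite strand of the 10 genes, whose part in it was not tested. These sums and shares are descriptions and were not tested.

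**Figure D4:**
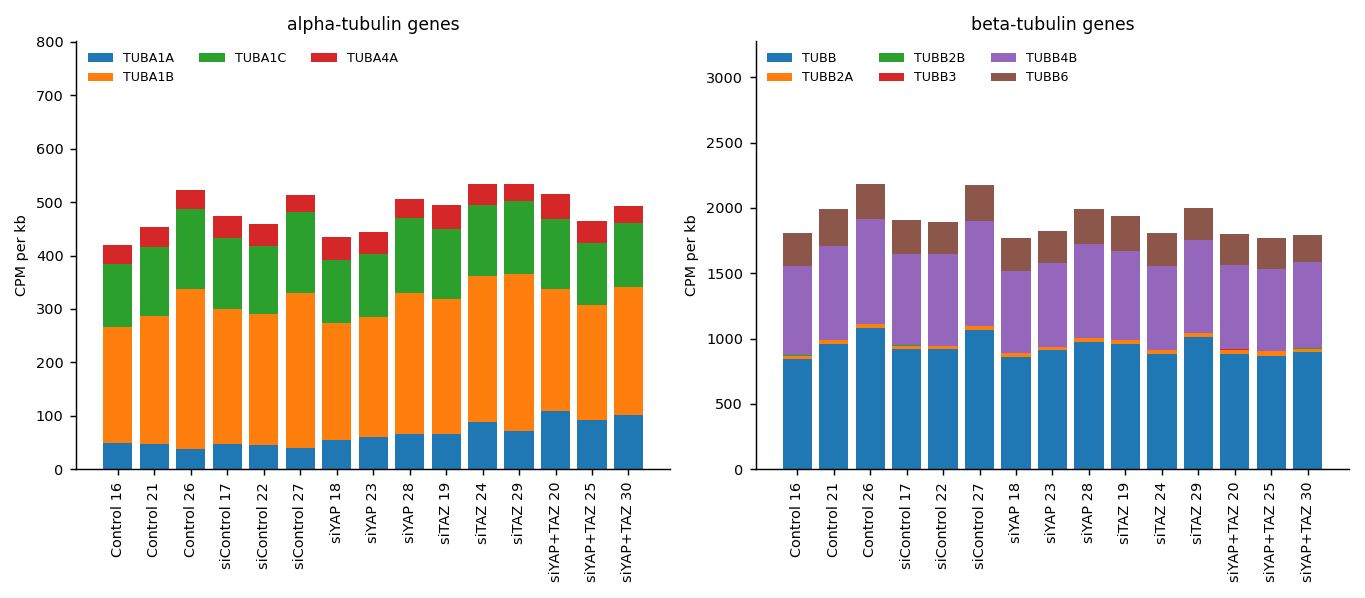
CPM per kilobase (vertical axes, from 0) of the alpha-tubulin genes on the left and the beta-tubulin genes on the right, stacked by gene, in 15 libraries ordered by group. The lowest segment on the left, TUBA1A, grows from 40.2 to 47.8 in siControl to 93.0 to 109 in siYAP+TAZ, while the alpha columns stay between 420 and 535.

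The genes whose log2 CPM followed TUBA1A most closely over the 15 libraries, among 13209 genes whose normalized counts averaged 20 or more, were KIAA1217 (Pearson r = 0.98), ADAM8 (r = 0.98), FUT8 (r = 0.97), BMP1 (r = 0.97) and ABCC3 (r = 0.97). The 15 libraries fall into 5 groups, so these r describe a shared order of the groups. With the group means removed, r was 0.82, 0.79, 0.69, 0.71 and 0.72. ADAM8 and BMP1 encode metalloproteinases, FUT8 a fucosyltransferase and ABCC3 an export pump. Among the members, r with TUBA1A was highest for TUBB2A (0.71, and 0.39 with group means removed) and lowest for TUBB6 (-0.72, and -0.19).

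The machinery for the folding, assembly and autoregulation of tubulin, with TTC5 in it, was measured as a list of 22 genes, all in the table. In siYAP+TAZ against siControl, 8 of the 22 fell and none rose, with a list median of -0.19 (log2) beside -0.00 over all genes tested and 8.39% of all genes lower. The 8 were the whole of CCT, the ring-shaped chaperonin that folds actin and tubulin: TCP1, CCT2, CCT3, CCT4, CCT5, CCT6A, CCT7 and CCT8. Their log2 fold changes were close together, from -0.36 to -0.29, with a median of -0.31.

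CCT8 read 6479, 6579 and 6929 in siControl and 4810, 5126 and 5610 in siYAP+TAZ, and fell by 0.36 (log2, SE 0.09, edgeR adjusted p = 0.0059). TCP1 read 6975, 6793 and 6708 in siControl, 5989, 6264 and 6098 in siYAP, 6342, 6202 and 6188 in siTAZ, and 5278, 5485 and 5305 in siYAP+TAZ, and fell by 0.35 (SE 0.06, adjusted p = 0.00059). Both single knockdowns lay between siControl and the double knockdown in TCP1, without overlap. In the single knockdowns no CCT subunit was called, and all 8 were below 0 in each, with medians of -0.12 in siYAP and -0.14 in siTAZ. CCT7 (log2 -0.32, adjusted p = 0.026) lost its call without siControl 17, siControl 27, siYAP+TAZ 20 or siYAP+TAZ 25 (adjusted p from 0.050 to 0.12) and against Control (0.051), and CCT4 (-0.30, adjusted p = 0.011) without siYAP+TAZ 20 (0.065).

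The 6 prefoldin subunits, which hand unfolded tubulin to CCT, were all below 0 without a call (median -0.13), and none of the 7 genes for tubulin cofactors and their regulator was called (median 0.04). TTC5, the factor that reads the starts shown above, read 243, 219 and 188 in siControl and 234, 222 and 167 in siYAP+TAZ, a log2 difference of -0.07 (adjusted p = 0.84).

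Enzymes that modify tubulin formed a list of 24 genes, of which 22 were in the table. In siYAP+TAZ 3 rose and 2 fell, with a median of 0.16, a share called near the 18.4% of all genes. TTLL1, the catalytic subunit of a complex that adds glutamate chains, read 25.5, 12.9 and 20.4 in siControl, 39.6, 51.6 and 38.6 in siTAZ and 58.3, 37.6 and 50.5 in siYAP+TAZ. The ranges did not overlap, and it rose by 1.30 (log2, SE 0.26, adjusted p = 0.0015) in siYAP+TAZ and by 1.13 (adjusted p = 0.028) in siTAZ, where the call was lost without siControl 22, siControl 27 or siTAZ 24 (0.063 to 0.18), with only these groups fitted (0.10) and against Control (0.12). VASH1, a carboxypeptidase that removes the final tyrosine of alpha-tubulin, read 41.7, 35.1 and 26.8 in siControl and 82.0, 90.2 and 46.8 in siYAP+TAZ. It rose by 1.06 (SE 0.25, adjusted p = 0.0058), with log2 differences of -0.00 and 0.00 in siYAP and siTAZ.

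TTL, the ligase that puts the tyrosine back, read 2846, 2647 and 2664 in siControl and 2124, 2328 and 2379 in siYAP+TAZ, and fell by 0.26 (SE 0.08, adjusted p = 0.027). That call was lost without siControl 17, siControl 22, siYAP+TAZ 20 or siYAP+TAZ 25 (adjusted p from 0.051 to 0.13) and against Control (0.064). TTLL4 was at -0.21 with an adjusted p of 0.049, which was lost whichever library of either group was left out (0.078 to 0.16). TTLL9 had 0, 0 and 1 read in siControl and 3, 7 and 4 in siYAP+TAZ, too few for a fold change, although its adjusted p was 0.040. That call was lost with DESeq2 (0.059), against Control (0.34), whose libraries had 3, 1 and 1 read, and without siControl 17, siControl 22, siYAP+TAZ 20 or siYAP+TAZ 30 (0.051 to 0.13). The calls in this list thus rested on genes of low count for those that rose and on small differences for those that fell.

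Of 36 genes for proteins that bind, cut or steer microtubules, 34 were in the table, and in siYAP+TAZ 3 rose and 4 fell (median -0.02), again a share near the 18.4% of all genes. CLIP2, a protein of growing microtubule ends, read 2010, 2081 and 1550 in siControl and 3052, 3257 and 3134 in siYAP+TAZ, and rose by 0.74 (log2, SE 0.09, adjusted p = 3e-05). It stood above both single knockdowns too, by 0.45 over siYAP (adjusted p = 0.0080) and 0.52 over siTAZ (adjusted p = 0.0033). CLASP1, which anchors and rescues microtubule ends, rose by 0.29 (adjusted p = 0.030), a call that was lost without siControl 22, siControl 27 or siYAP+TAZ 30 (0.076 to 0.16). MAPT, the tau protein of axons, averaged under 20 normalized counts and was at 0.96 (adjusted p = 0.032, and over 0.05 in 5 of 6 fits that left out a library, all but the one without siYAP+TAZ 30). FIGN, a microtubule-severing enzyme, read 433, 456 and 305 in siControl and 244, 237 and 215 in siYAP+TAZ, and fell by 0.78 (SE 0.13, adjusted p = 0.00032). MAP7D3, which recruits kinesin to microtubules, fell by 0.56 (SE 0.11, adjusted p = 0.0013). The other 2 that fell, TPX2 (-0.27, adjusted p = 0.0095) and TACC3 (-0.24, adjusted p = 0.023), act at the mitotic spindle. TPX2 lost its call without siYAP+TAZ 20 (0.055), and TACC3 without siControl 27, siYAP+TAZ 20 or siYAP+TAZ 30 (0.083 to 0.12) and with library size alone (0.067).

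In the gamma-tubulin ring complex, which starts new microtubules, 1 of 14 genes rose and 3 fell, beside 18.4% of all genes called in either direction and 8.39% lower. TUBGCP2, a core subunit, read 4151, 4235 and 4372 in siControl and 5589, 5430 and 5328 in siYAP+TAZ and rose by 0.36 (log2, SE 0.07, adjusted p = 0.00096), while it differed by 0.07 and 0.05 in the single knockdowns. NEDD1, which attaches the complex to the spindle, fell by 0.37 (SE 0.08, adjusted p = 0.0046). TUBGCP3 fell by 0.29 (adjusted p = 0.029), with the call lost in 5 of 6 fits that left out a library (0.053 to 0.14, all but the one without siYAP+TAZ 30). TUBGCP4 was at -0.28 with an adjusted p of 0.047, which was lost whichever library of either group was left out (0.071 to 0.14) and against Control (0.087). Of 12 other tubulin genes, 7 were in the table and 1 was called, where 18.4% of all genes were: TUBE1, the epsilon-tubulin of centrioles, at -0.49 (adjusted p = 0.040), a call lost in 5 of 6 fits that left out a library (0.060 to 0.20, all but the one without siControl 27).

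**Figure D5:**
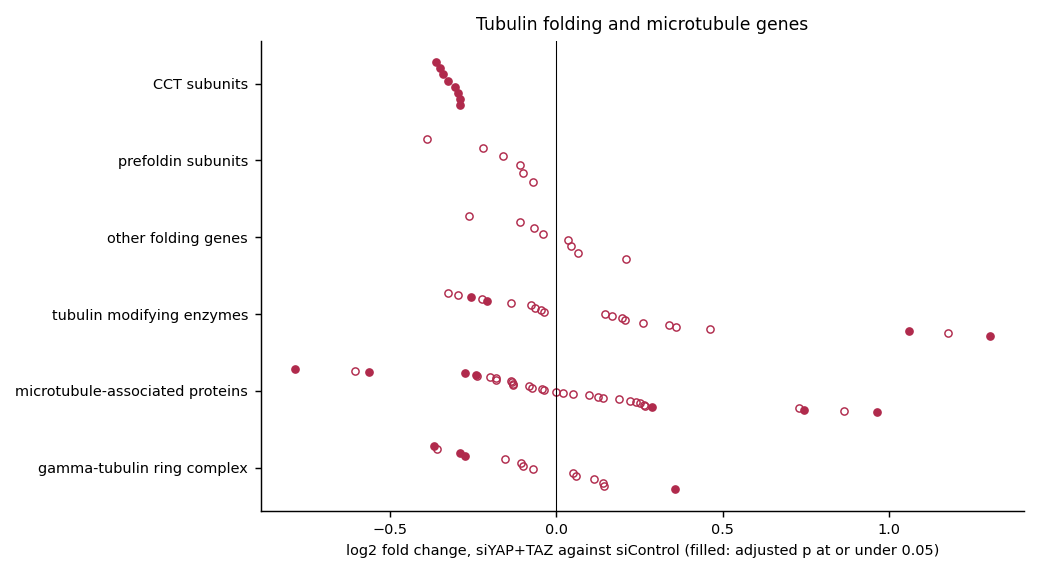
Log2 fold changes in siYAP+TAZ against siControl (horizontal axis) of the genes that fold or modify tubulin or act on microtubules, by list (rows); filled points passed an adjusted p of 0.05, and TTLL9, with 3 to 7 reads, is left out. The 8 CCT subunits cluster between -0.36 and -0.29, the 6 prefoldin subunits are open points below 0, and the other lists spread to both sides of 0.

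Across the single knockdowns these lists gave few calls. None of their genes was called in siYAP, and in siTAZ TTLL1 was the sole call, on a background of 0.933% and 2.03% of all genes. These counts depended on the setting. In siYAP, FIGN (log2 -0.52) and TPX2 (-0.23) passed with DESeq2 (adjusted p = 0.013 and 0.040), FIGN also without siControl 27 (0.010), and FIGN and CLIP2 against Control (0.034 and 0.049). In siTAZ, TUBGCP4 passed with DESeq2 (log2 -0.33, adjusted p = 0.033) and without siTAZ 19 (0.039). Beside TUBA1A, the comparison of siYAP+TAZ with siYAP called VASH1, CLIP2, CLASP1, TUBGCP2, CCT3 and CCT5 among the genes named here, all in the direction they took against siControl. CLIP2 alone of these 6 stayed called with each library of either group left out. CCT3 (log2 -0.23, adjusted p = 0.036) and CCT5 (-0.23, adjusted p = 0.043) lost their calls whichever library was left out (0.060 to 0.12). VASH1 lost its call without siYAP 18, siYAP 28, siYAP+TAZ 20 or siYAP+TAZ 25 (0.051 to 0.10), TUBGCP2 without siYAP 18, siYAP 23, siYAP+TAZ 20 or siYAP+TAZ 25 (0.059 to 0.083), and CLASP1 without any library but siYAP+TAZ 20 (0.050 to 0.17).

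The binding sequence of TEAD factors, through which YAP and TAZ reach DNA, was searched as GGAATG on both strands in windows of 300 bases around gene starts (RefSeq, GRCh38). Of 15 windows of the 10 genes, 2 held it, 1 of TUBB4B and 1 of TUBB6, beside 14.0% of 35116 windows of all genes. The window of TUBA1A did not hold these letters.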

How the data were processed

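The authors made libraries from polyadenylated RNA, read 1 end of each fragment on a NovaSeq, and ran the UTAP pipeline, in which cutadapt trimmed the reads and STAR 2.4.2a aligned them to GRCh38 (GENCODE release 34). They deposited counts of reads per gene from STAR, without normalization. Whether strand was used is not given in the sources used here. The deposited table also holds normalized and rlog values and the authors' DESeq2 comparisons (fold changes and p-values), which were not used. All 18858 genes reached 5 reads in at least 1 library.

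Counts were tested with edgeR 4.0.16 (R 4.3.3; TMM, robust quasi-likelihood, 1 coefficient per group, all 15 libraries, no block) and adjusted by the Benjamini-Hochberg method over all genes. Calls are an adjusted p of 0.05 or less, alone or with a log2 fold change of 1 or more in size. The 10 genes and the gene lists were chosen with earlier results of these data known. Beyond the 10, genes were named where a list's gene passed both thresholds in a knockdown, or was among the 2 highest or 2 lowest called changes in siYAP+TAZ averaging 20 or more normalized counts, and the 5 genes most like TUBA1A. The other CCT subunits, TTC5, MAPT, TPX2, TACC3, TUBGCP4 and the cell markers were named after their values were seen. Each result was recomputed with limma-voom (limma 3.58.1), with DESeq2 1.42.0 set as the study's methods state, with other scalings and filters, only the groups compared, Control as reference or a block, and with each library left out. Tools were tested on simulated data first. Lengths, coordinates and sequences came from GRCh38 with GENCODE release 44, in which 15696 of the 18858 genes matched by name. Some sequences are not reported here.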

Additional observations from a re-analysis of the deposited data

Results flagged for a closer look

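Effects against the shared siControl libraries differed between knockdowns by a direct test for the following genes among those named above. TUBA1A was higher in siYAP+TAZ than in siYAP by 0.76 (log2, edgeR adjusted p = 0.0011) and than in siTAZ by 0.43 (adjusted p = 0.041), in 3 of 3 libraries each, and the second call was lost without any library of either group but siTAZ 24 (0.063 to 0.16). VASH1 was higher than in siYAP by 1.06 (adjusted p = 0.017) and than in siTAZ by 1.05 (adjusted p = 0.020), CLIP2 by 0.45 (0.0080) and 0.52 (0.0033), and TUBGCP2 by 0.28 (0.017) and 0.31 (0.011). CLASP1 was higher than in siYAP by 0.33 (adjusted p = 0.034), and CCT3 and CCT5 were lower than in siYAP, both by a log2 difference of -0.23 (0.036 and 0.043). Lower than in siTAZ were TCP1 by a log2 difference of -0.22 (adjusted p = 0.043), TTLL4 by -0.25 (0.045), FIGN by -0.58 (0.014), TPX2 by -0.28 (0.026) and TACC3 by -0.27 (0.029). VASH1 lost its call against siYAP without siYAP 18, siYAP 28, siYAP+TAZ 20 or siYAP+TAZ 25 (adjusted p from 0.051 to 0.10), and against siTAZ without siTAZ 24, siTAZ 29, siYAP+TAZ 20 or siYAP+TAZ 25 (0.071 to 0.11). TUBGCP2 lost its call against siYAP without siYAP 18, siYAP 23, siYAP+TAZ 20 or siYAP+TAZ 25 (0.059 to 0.083), and CLASP1 without any library but siYAP+TAZ 20 (0.050 to 0.17). Against siTAZ, TCP1 lost its call whichever library was left out (0.084 to 0.14), TTLL4 without any but siTAZ 19 (0.075 to 0.17), and FIGN without siTAZ 24 or siYAP+TAZ 30 (0.057 to 0.058). TPX2 lost its call there without siTAZ 24, siTAZ 29, siYAP+TAZ 20 or siYAP+TAZ 25 (0.074 to 0.13), and TACC3 whichever library was left out (0.057 to 0.12). CCT3 and CCT5 lost theirs against siYAP whichever library was left out (0.060 to 0.12). CLIP2 in both comparisons and TUBGCP2 against siTAZ stayed called with each library left out. Groups of 3 libraries were not searched for single libraries that stand apart.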

How the results depend on the processing

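TUBA1A kept its call in siYAP+TAZ against siControl under all 15 alternatives run, at log2 fold changes from 1.13 to 1.26, and in siTAZ at 0.63 to 0.86. No called value of a named gene changed sign. The count of called members rose from 1 to 5 in siYAP+TAZ against siControl with the run of library numbers as a replicate block (TUBA1A, TUBA1B, TUBB3, TUBB4B and TUBB6; 2 past both thresholds), where the share of all genes called rose from 18.4% to 28.6%, and to 2 with Control as reference. It rose from 0 to 1 in siYAP with DESeq2 and with only the groups compared, and in siYAP against siTAZ with the block (TUBA1B). In siYAP+TAZ against siTAZ it was 0 with library size alone and with only the groups compared, and 0 to 1 with a library left out. With the block it was again 1, but TUBA1B in place of TUBA1A (adjusted p = 0.053). The labels do not say that a run of numbers marks a shared experiment. Libraries of the same run but other groups correlated in their deviations from group means at a median of 0.39, with 26 of 30 pairs over 0.1. Between runs the median was -0.32, with 16 of 60 pairs over 0.1. Of the 15 libraries, 10 were most like one of their own run. The cause of the changes in the count of called members was not tested. The count of CCT subunits that fell was 8 in the reported fit, 6 to 8 with a library left out and 7 against Control. The block raised the share of all genes called in siYAP from 0.933% to 6.1% and in siTAZ from 2.03% to 10.3%. Among the other genes named, it added calls in siYAP for FIGN (adjusted p = 0.0013), TPX2 (0.013), CCT7 (0.014), CD14 (0.017), TTL (0.032), CLIP2 (0.037), TACC3 (0.039), YAP1 (0.039) and MAP7D3 (0.040), in siTAZ for MAP7D3 (0.00061), TUBGCP4 (0.0068), CAV1 (0.0072) and CCT8 (0.023), and in siYAP+TAZ against siTAZ for WWTR1 (0.037), CCT4, CCT5, CCT8, TTL, MAP7D3, TUBGCP3 and NEDD1. It also added TCP1, CCT4, CCT6A, CCT8, TTLL1, TTLL4, MAP7D3, TUBGCP4 and CAV1 in siYAP+TAZ against siYAP, and YAP1, CLASP1, TPX2, TACC3 and TUBGCP4 in siYAP against siTAZ. TUBA1A's share of alpha level was 9.21% in siControl and 20.6% in siYAP+TAZ, 7.68% and 17.5% without division by length, 7.86% and 17.9% with all annotated exons, and 19.6% in siYAP+TAZ with windows that occur nowhere else as the length (the last 2 chosen after seeing the data). The level of TUBB3 rests on 5 to 26 normalized counts, where depth limits what can be seen.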
